A study of Mus musculus with 8 samples.

Results

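The intervals examined here cover the olfactory receptor genes, symbols Olfr followed by digits, in a table of H3K27me3 ChIP-seq counts from mouse embryonic stem cells. An interval was taken when its span matched such a RefSeq gene better than any other gene, with shared bases making up 0.5 or more of the bases that either covers. This gave 792 intervals of 761 genes on 10 chromosomes, out of 50398 intervals in the table. The rule used symbols and spans and no measured value, though it was chosen with earlier results of these data known. The autosomes of the table run only from 1 to 10, so receptor clusters on other autosomes are not covered. RefSeq lists 1428 Olfr genes in all. On the chromosomes of the table it lists 1051, pseudogenes included, so 72.4% of those were matched. Of the 816 coding ones, 750 were matched, and the rest were not analysed here.

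All libraries came from E14tg2a cells of 129SV background that stably express cRAF-ErT2, a RAF kinase fused to a hormone-binding domain and switched on by 4-hydroxytamoxifen (4OHT). Clones A and B of this line were each left untreated (0 h) or given 250 nM 4OHT (2 h), so each time holds 2 libraries. Every culture, controls included, had first been grown in serum with LIF and the GSK3 inhibitor Chir99021 (2 µM). That compound was then replaced for 24 h by the FGF receptor inhibitor PD173074 (250 nM). H3K27me3 was pulled down after fixation in 1% formaldehyde for 10 min, and the 4 input libraries of the series were not analysed here.

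Olfactory receptors are G protein-coupled receptors of the sensory neurons of the nose, where each mature neuron transcribes a single receptor gene from a single allele. The genes lie in clusters, most have their whole coding sequence in a single exon, and they are silent in embryonic stem cells. Class I receptors, related to those of fish, lie in a single cluster on chromosome 7 in mice, and class II receptors are spread over many clusters. H3K27me3 is laid down by Polycomb repressive complex 2, which in embryonic stem cells gathers mainly at CpG islands of silent developmental regulators. In olfactory neurons the silent receptor genes are known to be packed in heterochromatin that carries other histone marks.

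Density is used throughout as the count per kb of interval per 1000000 counts of the library's column total, and the median gene of the table had a density of 0.357. Values for single libraries are given with clone A before clone B, first untreated and then treated, unless said otherwise. A gene is called marked when its mean density over the 4 libraries reached 4 times that value, 1.43. This is a limit within the immunoprecipitated libraries and not an enrichment over input. Only 3 receptor intervals were marked, those of Olfr1339, Olfr1342 and Olfr926, or 0.379%, against 5.76% of 20280 genes and 4.89% of all intervals. The sequences before their annotated starts are shown because Polycomb targets in stem cells are usually rich in CpG, and these are not. They are followed by the receptor window with the most CpG, that of Olfr212, and by that of Olfr986, the sparsest receptor of chromosome 9, both unmarked. Each is the stretch of 250 bases before a start in the RefSeq window table, on the gene's strand, 5′ to 3′, GRCm38.p6, with CpG dinucleotides in capitals.
Olfr1339, chr4:118734281-118734530, plus strand: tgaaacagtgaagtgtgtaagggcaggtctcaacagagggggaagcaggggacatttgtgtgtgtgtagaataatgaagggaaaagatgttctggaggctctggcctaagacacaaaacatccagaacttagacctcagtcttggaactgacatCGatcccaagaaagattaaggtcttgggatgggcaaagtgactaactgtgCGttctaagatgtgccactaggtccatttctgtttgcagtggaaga
Olfr926, chr9:38876928-38877177, plus strand: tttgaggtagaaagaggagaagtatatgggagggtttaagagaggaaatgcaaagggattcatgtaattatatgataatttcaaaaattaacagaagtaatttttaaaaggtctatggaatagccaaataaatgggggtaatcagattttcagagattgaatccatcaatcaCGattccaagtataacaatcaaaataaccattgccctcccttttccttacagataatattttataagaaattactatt
Olfr1342, chr4:118690451-118690700, minus strand: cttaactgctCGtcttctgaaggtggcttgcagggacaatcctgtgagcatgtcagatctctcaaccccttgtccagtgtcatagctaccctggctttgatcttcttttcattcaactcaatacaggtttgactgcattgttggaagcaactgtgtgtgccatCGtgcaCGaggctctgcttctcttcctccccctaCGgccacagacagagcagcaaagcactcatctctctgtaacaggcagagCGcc
Olfr212, chr6:116506266-116506515, plus strand: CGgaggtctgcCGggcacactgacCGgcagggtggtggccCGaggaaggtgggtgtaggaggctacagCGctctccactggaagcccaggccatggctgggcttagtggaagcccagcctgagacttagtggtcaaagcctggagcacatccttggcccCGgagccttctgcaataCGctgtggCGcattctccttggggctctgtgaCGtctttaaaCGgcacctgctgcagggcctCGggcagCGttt
Olfr986, chr9:40186829-40187078, plus strand: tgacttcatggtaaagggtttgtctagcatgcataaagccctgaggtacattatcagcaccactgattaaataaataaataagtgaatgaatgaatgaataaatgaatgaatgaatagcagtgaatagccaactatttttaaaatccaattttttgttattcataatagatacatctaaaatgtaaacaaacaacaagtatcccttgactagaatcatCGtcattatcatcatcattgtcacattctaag
The stretches of Olfr1339, Olfr926 and Olfr1342 held 2, 1 and 5 CpG, and that of Olfr212 held 12. For Olfr1339, Olfr926 and Olfr1342 the bases that follow are the start codon, so these stretches precede the coding sequence and may not be promoters. The start used for Olfr1342 lies inside the gene's span, so its stretch lies within its own counted interval, and the other 4 end at the base before theirs.

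Olfr1339 (chromosome 4, 118734531 to 118735478, a coding gene of 948 bp) was the densest receptor in every library. It measured 2.998 and 4.18 at 0 h and 3.64 and 4.03 at 2 h. Its mean of 3.71 ± 0.528 (SD, n = 4) was 10.4 times the median gene, and its lowest library was above every library of the other receptors except Olfr926 in 0 h clone B. The transcription factor gene Lhx2 (3.93), marked as well, had a like mean level in the same libraries. Its interval is 30457 bp long, so that level is a mean over a far longer stretch than the 948 bp of Olfr1339.

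Olfr926 (chromosome 9, 38877178 to 38878104) measured 2.42 and 3.16 at 0 h and 1.99 and 2.45 at 2 h. Its mean was 2.51 ± 0.483 (SD, n = 4), 7.01 times the median gene. The receptors next to it were far lower, with Olfr26 at 0.727 on one side, Olfr930 at 0.721 on the other and Olfr924 at 0.867. It was the only marked interval of its cluster, Olfr160 to Olfr986, which holds 98 receptor genes.

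Olfr1342 (chromosome 4, 118689152 to 118693034) measured 2.21 and 2.08 at 0 h and 1.98 and 1.93 at 2 h, a mean of 2.05 ± 0.126 (SD, n = 4) or 5.74 times the median gene. It lies in the same cluster as Olfr1339. Olfr1341 and Olfr1340, which lie between them, came next below the limit: Olfr1341 reached 1.17 ± 0.226 (SD, n = 4), and Olfr1340 reached 1.26 and 1.08 in 2 intervals that overlap and share reads. The single counts behind these values were 200 to 325 reads for Olfr1339, 158 to 238 for Olfr926 and 605 to 712 for Olfr1342.

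**Figure D1:**
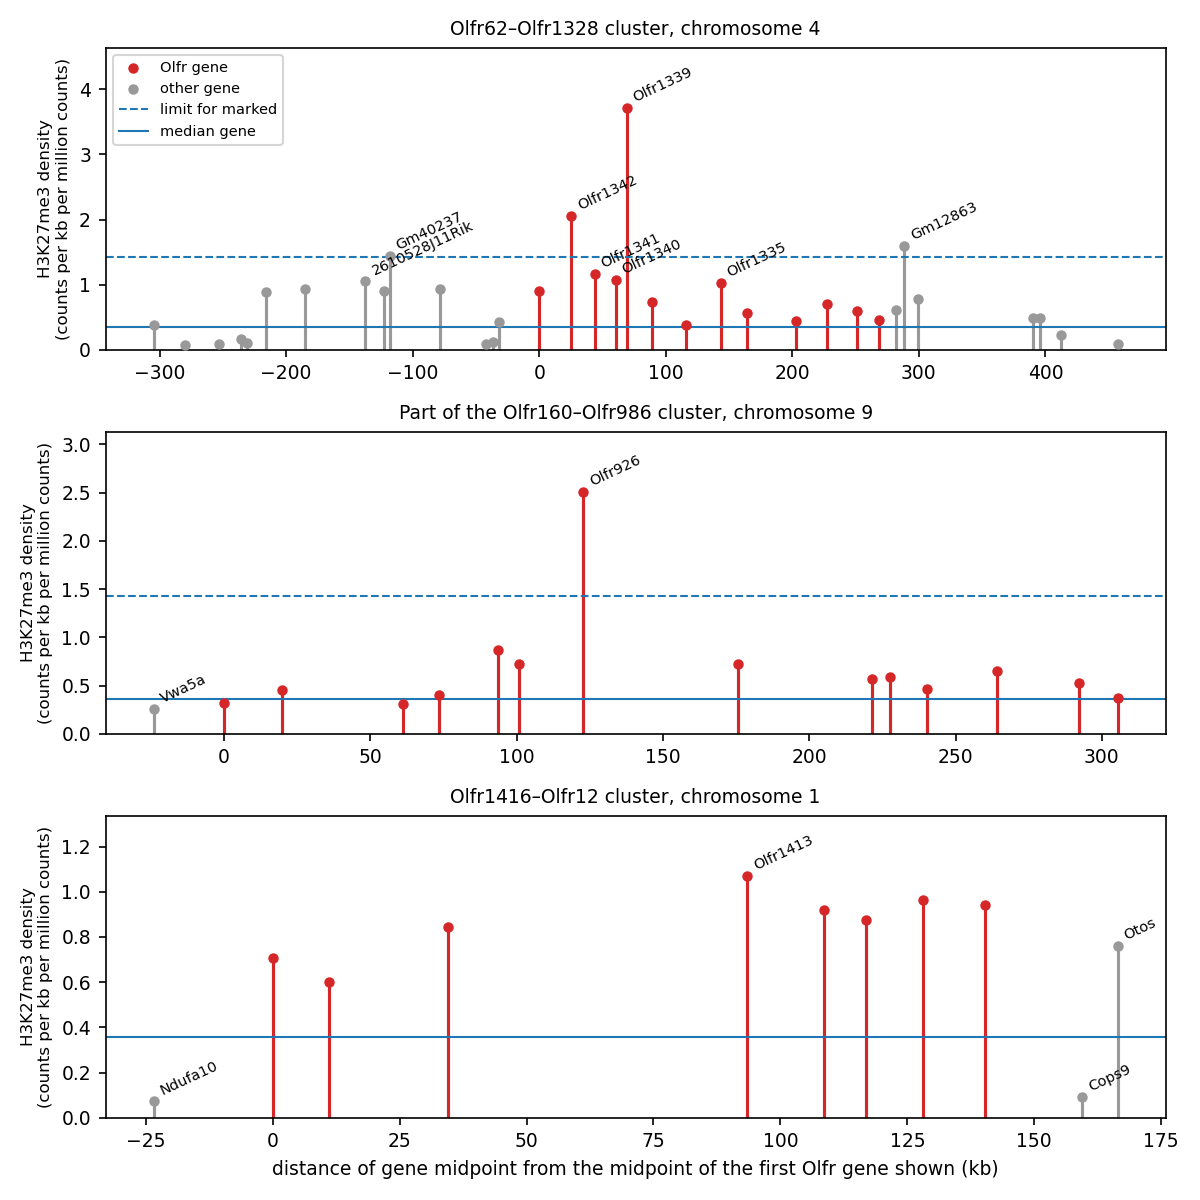
H3K27me3 density (counts per kb per 1000000 counts, mean of 4 libraries) of each measured gene, against the distance of its midpoint from the first receptor shown (kb), at 3 receptor loci. Olfr genes are red and other genes grey, the solid line is the median gene (0.357) and the dashed line the limit for marked (1.43). Olfr1339 (3.71) and Olfr1342 (2.05) stand in a run of raised receptors on chromosome 4, Olfr926 (2.51) stands alone on chromosome 9, and the 8 receptors on chromosome 1 have 0.603 to 1.07 between Ndufa10 and Cops9.

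The measured receptors as a whole sat in a narrow band near the middle of the table's range. The median receptor interval had a density of 0.337, 0.337, 0.333 and 0.336 in the 4 libraries. Their mean was 0.336 ± 0.00206 (SD, n = 4), and the median interval stood at 0.940 times the median gene. Receptors spread from 0.179 to 0.749 between the 5th and 95th percentiles, while genes of the table spread from 0.0786 to 1.56. No receptor lay under 0.25 times the median gene density, as 9.57% of genes did. At 2 times the median gene and above were 6.06% of receptors (48 intervals) and 18.8% of genes. The receptor band was thus short at both ends of the range of genes of all lengths. Among genes under 1200 bp, the lower and upper quartiles were 0.258 and 0.456 for receptors. For other coding genes of that length they were 0.237 and 0.563, so the lower quartiles lay close together.

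Receptor intervals are short, and this limits each single value. They ran from 842 to 60182 bp with a median of 951 bp, against 20477.5 bp for all intervals, and 82.7% were under 1200 bp. The median interval held 26, 31, 33 and 32 reads in the 4 libraries, and a count of 30 has an exact Poisson 95% interval of 20.2 to 42.8 that covers counting error only. All receptor intervals together took 0.0575% to 0.0605% of the column totals, which ran from 70378127 to 92518605. A table total is not a sequencing depth, since intervals overlap and a read can be counted more than once. Density had a Spearman's rho of 0.04 with length within the family (761 genes, which share the 4 libraries). Among genes under 1200 bp, receptors had a median of 0.339 (n = 648) and other coding genes 0.365 (n = 337), of which 5.93% were marked. How reads that map equally well to near-identical receptor copies were handled is not given in the sources used here, so values of close paralogs are uncertain.

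Despite these low counts, the order of receptors was partly shared between libraries. Log2 densities correlated at 0.758 to 0.832 (Pearson's r) across 761 genes, lowest between the clones at 0 h and highest between the times in clone B. These genes share the length term and are not independent replicates. Neighbours also resembled each other: the densities of adjacent receptors within a cluster had a Spearman's rho of 0.551 over 732 pairs, and of 0.303 over 221 pairs within the largest cluster. Both values are descriptions across genes of the same libraries.

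By chromosome, receptors were sparsest on chromosome 2, which holds the most of them. The median of 298 intervals on chromosome 2 was 0.274, with 0.288, 0.274, 0.255 and 0.276 in the 4 libraries, and it was 0.781 times the median of the other intervals there. Chromosomes 9 (146 intervals, 0.361), 7 (242, 0.384), 1 (27, 0.418) and X (6, 0.424) followed. Chromosomes 6 (28, 0.469), 10 (10, 0.480), 4 (28, 0.591), 3 (2, 0.608) and 8 (5, 0.752) were highest. The library medians of chromosome 2 (0.255 to 0.288) did not overlap those of any other chromosome. Chromosome 4 was from 0.629 to 0.655 and lay above the library medians of chromosomes 1, 2, 6, 7, 9, 10 and X in every library. Chromosome 7 was above chromosome 9 in each of the 4 libraries, by the least in 0 h clone A (0.376 against 0.375), although their ranges over libraries overlapped.

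**Figure D2:**
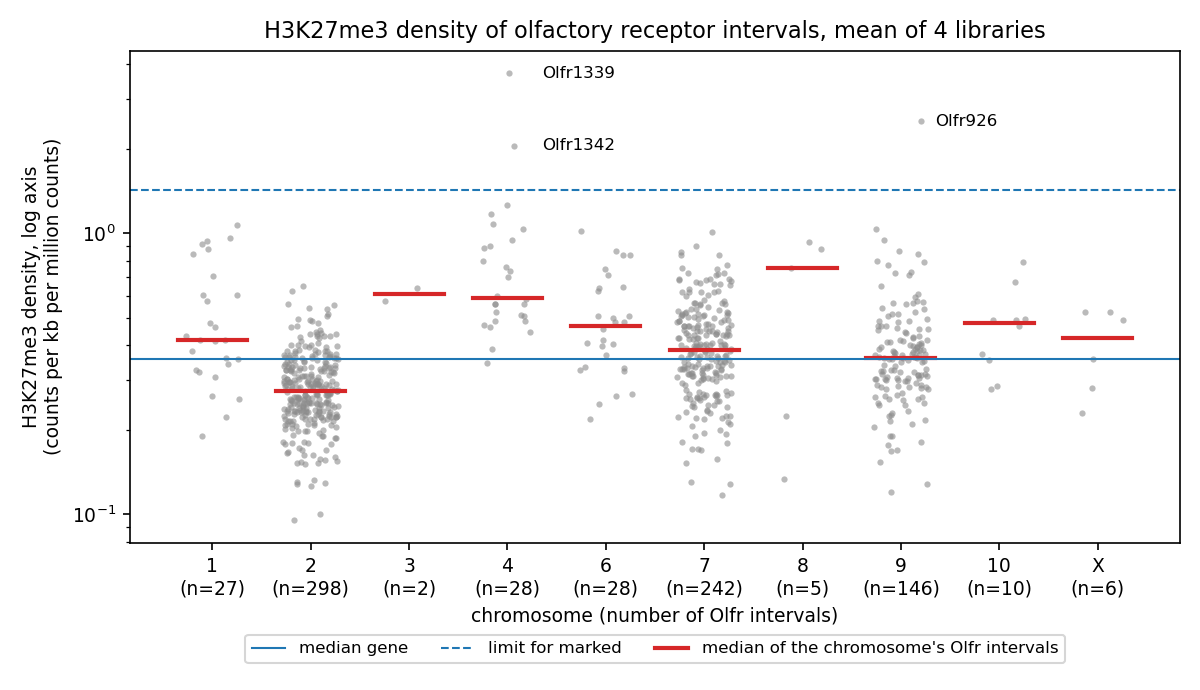
H3K27me3 density (counts per kb per 1000000 counts, log axis, mean of 4 libraries) of each of the 792 olfactory receptor intervals by chromosome. Points are intervals, red bars chromosome medians, the solid line the median gene (0.357) and the dashed line the limit for marked (1.43). The 298 intervals of chromosome 2 centre on 0.274, and 3 intervals, on chromosomes 4 and 9, lie above the limit.

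Within a chromosome the receptors differed several-fold. On chromosome 2 they ran from 0.129 (Olfr1062), among those with a mean count of at least 10, to 0.647 (Olfr152), so that no receptor there reached 2 times the median gene. Olfr152 measured 0.613 and 0.634 at 0 h and 0.477 and 0.865 at 2 h. On chromosome 7, with the same minimum count, the range was 0.129 (Olfr692) to 1.01 (Olfr524), and without it the lowest was 0.117. Part of the Olfr524 interval overlaps another gene, so their reads are shared. Chromosome 9 ran from 0.120 (Olfr986) to Olfr926 at 2.51, and chromosome 1 from 0.190 (Olfr432) to 1.07 (Olfr1413). On chromosome 10, Olfr8 had 0.280 and Olfr1358 0.789, and the Olfr1358 interval overlaps another gene. The only receptors on chromosome 3 were Olfr1402 (0.576) and Olfr266 (0.640). On chromosome 6, Olfr237 had 0.218 and Olfr455 1.02. On chromosome 8, Olfr372 had 0.134 and Olfr370 0.927, although only 5 receptors were measured there. Chromosome 4 had the highest floor among the chromosomes with 20 or more receptors, with Olfr272 at 0.346.

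Receptors on chromosome X had a higher median than the other intervals of that chromosome. The 6 X-linked intervals had a median of 0.424, from 0.229 (Olfr1323) to 0.526 (Olfr1320), while the other 2663 intervals of chromosome X had a median of 0.160, 2.65 times lower. Pooled over the autosomes, receptors (0.335) and other intervals (0.336) had like medians, but single chromosomes differed. On chromosome 2, which holds 298 receptor intervals, the receptor median was 0.781 times that of the other intervals. On every other autosome with receptors it was the higher one. The ratio there ran from 1.12 (chromosome 1) to 1.93 (chromosome 4, 28 intervals) and 2.24 (chromosome 8, 5 intervals). Other X-linked genes under 1200 bp, the length of most receptors, had a median of 0.246 (n = 59). Near neighbours varied: of the genes flanking the 2 clusters, Arhgap36 had 0.794, Ctag2l1 0.214, Gm35612 0.121 and Gm5640 0.0809. The 1 other gene inside a cluster had 0.491. With 6 receptors from 2 clusters these values are a description only.

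Members within 1000000 bp of each other were joined into clusters, which gave 29, of which 18 held at least 5 genes and 742 genes in all. Summing the reads of a cluster gives far higher counts than most single receptors, and weights each receptor by its length. The sums ran from 0.228 ± 0.0139 (SD, n = 4) for Olfr1275 to Olfr1318 on chromosome 2 (38 genes) to 1.17 ± 0.0772 for Olfr62 to Olfr1328 on chromosome 4 (13 genes), a 5.13-fold range. The ranges of these 2 clusters over libraries, 0.216 to 0.248 and 1.09 to 1.26, did not approach each other. Olfr1342 and Olfr1339 weigh heavily in the upper one. By the median gene of a cluster the lowest stayed Olfr1275 to Olfr1318 (0.246), but the highest was Olfr1416 to Olfr12 on chromosome 1 (0.897) and Olfr62 to Olfr1328 came next (0.732), a 3.65-fold range.

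In the order of the summed densities of the 18 larger clusters, 7 steps between neighbours exceeded the spread of the libraries. Above Olfr1275 to Olfr1318 came Olfr310 to Olfr292 on chromosome 7 (0.269 ± 0.0151, 15 genes) and Olfr987 to Olfr1274 on chromosome 2 (0.284 ± 0.00961, 222 genes over 5071 kb, the largest cluster), which overlapped each other. Olfr24 to Olfr18 on chromosome 9 stood alone at 0.320 ± 0.0272. A run of 7 clusters in which each overlapped the next went from 0.376 ± 0.0172 (Olfr16 to Olfr220, chromosome 1) to 0.399 ± 0.00483 (Olfr1344 to Olfr1350, chromosome 7). Both chromosome 6 clusters of this size followed at 0.440 and 0.444.

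By summed density, 5 of the larger clusters lay above the ranges of the rest. Olfr1358 to Olfr57 (chromosome 10, 0.619 ± 0.0139), Olfr522 to Olfr541 (chromosome 7, 0.650 ± 0.0399) and Olfr70 to Olfr155 (chromosome 4, 0.699 ± 0.0354) overlapped in sequence. Olfr1416 to Olfr12 on chromosome 1 (8 genes, 0.858 ± 0.0678) and then Olfr62 to Olfr1328 were each apart from the cluster below. This set depends on the weighting by length. By median gene, Olfr1358 to Olfr57 stood at 0.480, while Olfr211 to Olfr215 on chromosome 6, with a sum of 0.440, stood at 0.644. Across all 29 clusters, the summed density had a Spearman's rho of -0.57 with the number of genes and of 0.74 with the median GC content of the start windows. These are descriptions over clusters that share the same 4 libraries.

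**Figure D3:**
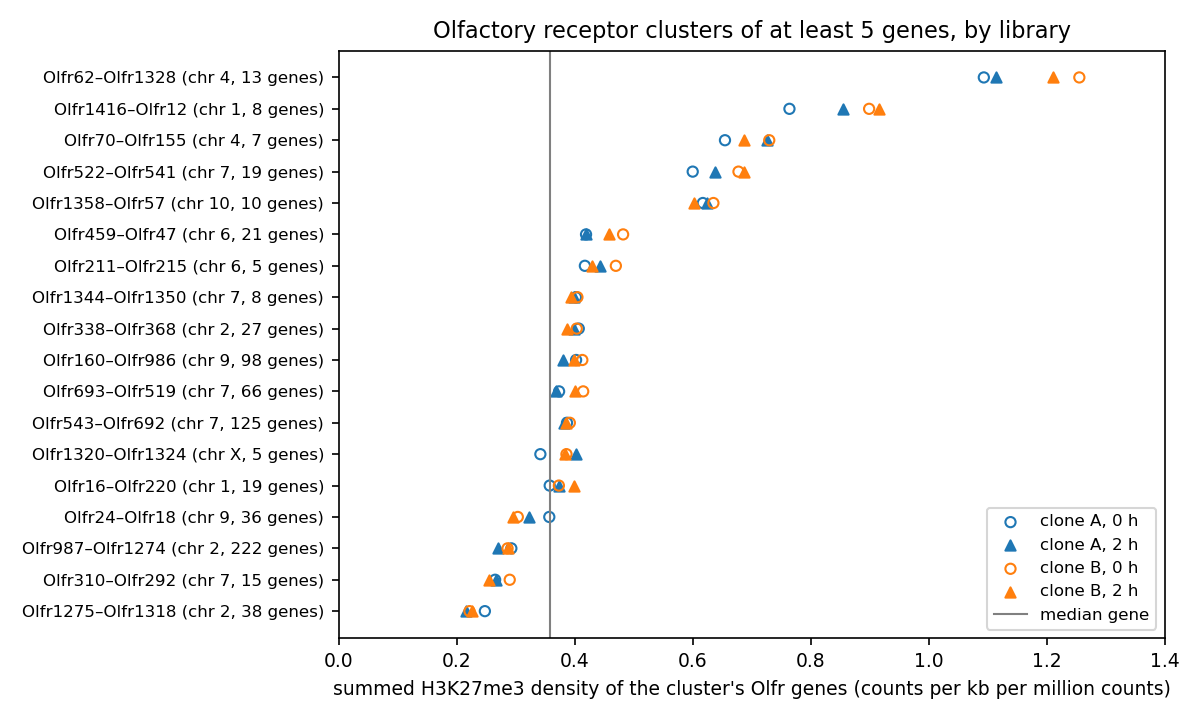
Summed H3K27me3 density (counts per kb per 1000000 counts) of the Olfr genes of each cluster of at least 5 genes, in each of the 4 libraries. Circles are 0 h and triangles 2 h, clone A is blue and clone B orange, and the line is the median gene (0.357). Clusters range from 0.228 (Olfr1275 to Olfr1318) to 1.17 (Olfr62 to Olfr1328), and the 4 libraries of a cluster lie close together compared with that range.

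The raised level of a cluster stopped at some borders. Olfr1416 to Olfr12 had 0.603 to 1.07 in each of its 8 receptors. Its flanking genes were at 0.0758 (Ndufa10, a subunit of mitochondrial complex I) and 0.0931 (Cops9, of the COP9 signalosome), both 6 or more times lower than any receptor between them. Beyond Cops9, Otos, which encodes an inner ear protein, had 0.761. The class I cluster, at 0.386, was close to the median gene (0.357) and not raised. It too lay between lower genes, Rrm1, the large ribonucleotide reductase subunit (0.0726), and Fam160a2 (0.0815).

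Around the chromosome 4 cluster, genes of both kinds were found. Ebna1bp2, a ribosome biogenesis factor, and Slc2a1, the glucose transporter GLUT1, both had 0.0837. Cfap57, a cilia gene, had 0.936, Lao1, an amino acid oxidase, 0.782, and the noncoding Gm12863 beside the last receptor 1.59. Over all 58 flanking genes of the 29 clusters the median was 0.387, the range 0.0726 to 1.59, and 1 was marked. Inside 12 clusters lay 104 other genes, of which 2 were marked.

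The class I cluster differed little between libraries. Taken as the 125 genes from Olfr543 to Olfr692 on chromosome 7, it had a summed density of 0.387, 0.392, 0.383 and 0.385 in the 4 libraries, or 0.386 ± 0.00388 (SD, n = 4). Its genes ran from 0.129 to 0.747. The class I median of 0.378 lay above that of the 636 class II genes (0.328) in each of the 4 libraries. It lay below that of the 112 class II genes on the same chromosome (0.402), also in each library. The difference between the classes therefore had opposite signs over the measured chromosomes and within chromosome 7.

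Receptors with described roles outside the nose were unmarked, as were all but 0.379% of receptor intervals and all but 5.76% of genes. Olfr78, a receptor for short-chain fatty acids studied in the carotid body and kidney, had 0.418, 0.430, 0.410 and 0.433 in the 4 libraries, a mean of 0.422 ± 0.0106 (SD, n = 4). Olfr558, also a short-chain fatty acid receptor, had 0.505 ± 0.0572. Olfr544, which responds to azelaic acid, had 0.686 ± 0.0653. Olfr16, studied in sperm and muscle, had 0.413 ± 0.0883, and its interval overlaps another gene. All 4 lay between 1.16 and 1.92 times the median gene.

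The vomeronasal receptors, the other large family of chemosensory receptors in clusters, had lower medians. Their 191 measured genes had a median of 0.298 and a highest value of 0.799, and none was marked. In the 4 libraries their medians were 0.305, 0.286, 0.289 and 0.292, against 0.338, 0.341, 0.335 and 0.337 for the olfactory receptor genes. The difference had the same direction in 4 of 4 libraries.

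Some genes that work with the receptors in olfactory neurons were marked. Of 36 genes of odour signalling and receptor choice, 22 were measured, and 4 were marked (5.76% of all genes). Among these were Lhx2 (3.93), a homeodomain factor needed for receptor expression, Neurod1 (2.25), a neuronal differentiation factor, and Gfy (2.74), a Golgi protein of olfactory neurons. The list median was 0.492, 1.38 times the median gene. Among the channel genes, Cnga2 had 0.371, Cnga4 0.507 and Cngb1 0.489, while Omp, the marker of mature olfactory neurons, had 1.05. At the other end were Setdb1 (0.0943), Kdm1a (0.0923) and Lbr (0.0958), chromatin and nuclear envelope genes that many cell types use.

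As reference levels, 6 of the 7 pluripotency genes measured stood at 0.243 (Zfp42) to 0.694 (Nanog) times the median gene, and Utf1 at 3.06 times. Of the housekeeping genes, Actb and Gapdh stood at 0.272 and 0.183 times and B2m at 2.48 times. The 4 fibroblast genes measured ran from 0.782 (Dcn) to 6.05 times (Thy1), with Col1a2 at 2.25 and Twist2 at 3.13. A histone mark does not measure RNA, so these levels do not test cell identity.

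Receptors far from other coding genes were less dense. Receptors within 50 kb of a coding gene outside the family had a median of 0.427 (n = 143). The medians were 0.382 (n = 128) from 50 to 100 kb, 0.361 (n = 148) from 100 to 200 kb, 0.327 (n = 207) from 200 to 500 kb, 0.250 (n = 94) from 500 to 1000 kb and 0.263 (n = 41) beyond 1000 kb. Spearman's rho across 761 genes was -0.42, and -0.36 to -0.40 in the single libraries. The relation was uneven within clusters: rho was -0.59 in Olfr693 to Olfr519 (66 genes), -0.24 in the largest cluster (222 genes), -0.10 in the class I cluster (125 genes) and 0.32 in Olfr1275 to Olfr1318 (38 genes). The farthest receptors all belong to few clusters: those beyond 1000 kb come from 1 cluster and those from 500 to 1000 kb from 4, so distance and cluster cannot be told apart there.

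**Figure D4:**
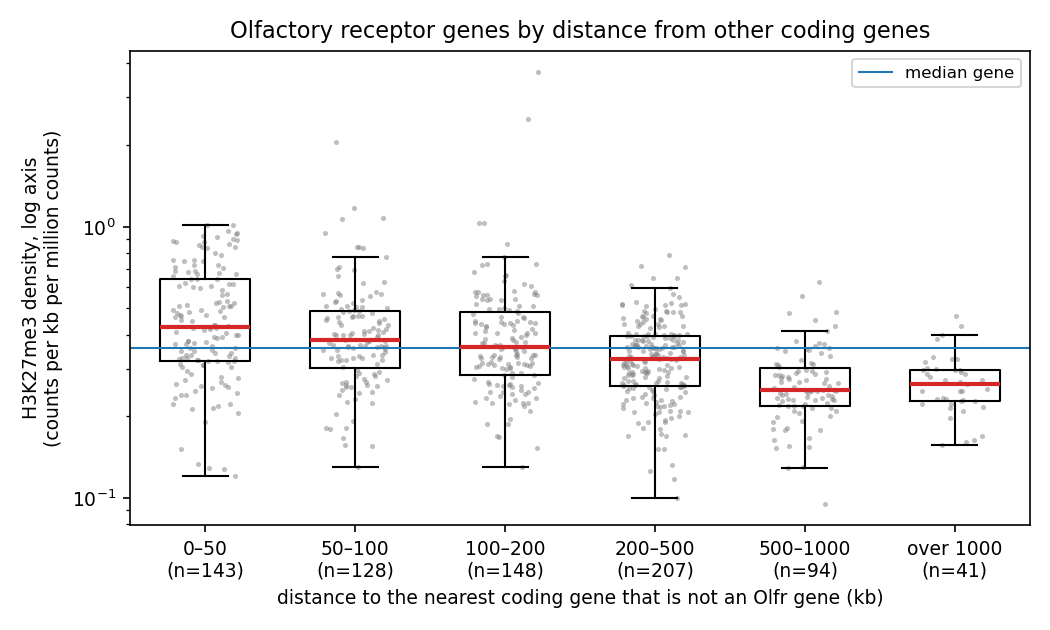
H3K27me3 density (counts per kb per 1000000 counts, log axis, mean of 4 libraries) of the 761 olfactory receptor genes by the distance to the nearest coding gene outside the family (kb). Points are genes, boxes the middle 50% with the median in red, whiskers reach the last gene within 1.5 box lengths, and the line is the median gene (0.357). Medians go from 0.427 within 50 kb to 0.250 from 500 to 1000 kb.

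The DNA at receptor starts was poor in GC and CpG. RefSeq windows of 300 bases (250 before to 50 after a start) were at hand for 644 receptor genes. Their median GC content was 34.7%, against 52.7% for all 27025 windows, and they held a median of 1 CpG against 7. No CpG at all was found in 33.4% of receptor windows and in 5.82% of all windows. In 73.3% of receptor windows that start is the start codon, against 6.74% of all, so these windows need not be promoters.

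A window with 10 or more CpG, found in 43.3% of all windows, was seen in 1 receptor. That was Olfr212, whose sequence is printed above, with 13 in its window. Olfr212 (chromosome 6, 116506516 to 116517965) was not marked: it measured 0.325, 0.349, 0.322 and 0.336 in the 4 libraries. The 3 marked receptors had 3 (Olfr1339 and Olfr926) and 5 (Olfr1342) CpG in their windows, while 551 other marked coding genes had a median of 17. Among other coding genes, 1.35% of those with no CpG in the window were marked, 2.21% of those with 1 to 3, and 6.25% of those with 10 or more. Of 419 other coding genes in the receptors' middle GC range (31.3% to 39.1%), 0% were marked, and their median density was 0.289. With up to 3 CpG in the window, 2092 other coding genes had a median density of 0.366 and 606 receptors 0.336.

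Denser receptors had starts of higher GC content. In 4 groups of receptors of rising window GC, the median density was 0.297, 0.321, 0.349 and 0.465. Spearman's rho was 0.35 with GC and 0.12 with the number of CpG (n = 644). The group highest in GC was also the one closest to other coding genes, at a median of 60.7 kb against 319.6 kb in the lowest, so both descriptions overlap, and their separate parts were not tested. Of the motifs searched on both strands, TAATTA, the core of homeodomain sites, occurred in 18.9% of receptor windows and 5.40% of all windows. The consensus site of EBF factors occurred in 0.155% and 0.895%. TAATTA holds only A and T, the EBF site is mostly G and C, and receptor windows are poorer in GC. How far base composition sets these shares was not tested. A match is a match of letters and no evidence of binding.

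The comparison the study was built for, 2 h of 4OHT against 0 h, gave no receptor call. By edgeR's quasi-likelihood test with Benjamini-Hochberg adjustment over 50037 intervals, 0 of the 787 receptor intervals tested were called in either direction, as were 0% of all intervals. The 5 untested intervals had mean counts of at most 10.5. At an unadjusted p under 0.05 there were 7 receptors (0.889%), and 0.376% of all intervals, and DESeq2 gave 0 of each kind for the receptors. The median receptor changed by -0.03 on the log2 scale (all intervals 0.01), -0.03 within clone A and -0.04 within clone B. The standard error of a receptor's log2 change had a median of 0.29. When the fit was limited to intervals averaging 50 reads or more, 0 were called as well.

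The 2 clones disagreed on direction in 426 of 792 intervals, while 145 were higher at 2 h in both clones and 221 lower in both. Both 0 h libraries exceeded both 2 h libraries in 16.3% of receptors, against 7.52% of all intervals. The reverse held for 11.4% of receptors, against 10.9%. Receptors hold fewer reads than most intervals, and these shares were not compared at a like count. An interval ordered by clone cannot also be ordered by time. Order by clone held in 29.2% (A above B) and 31.7% (B above A) of all intervals, and in 15.9% and 27.7% of receptors. In 6 of the 29 clusters both 0 h sums exceeded both 2 h sums, and in 2 the reverse. With 2 libraries per time an exact two-sided permutation test cannot go below 0.333.

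The receptors of smallest p with 1 direction in both clones had low counts. Olfr684 had 0.242 and 0.328 at 0 h against 0.553 and 0.463 at 2 h, a log2 difference of 0.82 ± 0.28 (SE), with an edgeR adjusted p of 1.00. Olfr1322 (0.82) and Olfr1155 (0.70) differed in the same direction. Olfr564 had 0.359 and 0.453 against 0.227 and 0.235, a log2 difference of -0.82 ± 0.29 (SE), also with an edgeR adjusted p of 1.00. Olfr1189 (-0.86) and Olfr615 (-0.80) were the next. The counts behind Olfr684 were 16 and 25 at 0 h and 48 and 37 at 2 h.

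The 3 marked receptors did not pass the test over time either. The log2 difference was 0.09 ± 0.18 (SE) for Olfr1339, -0.14 ± 0.12 for Olfr1342 and -0.34 ± 0.19 for Olfr926. Olfr1339 was higher at 2 h in clone A (0.30) and lower in clone B (-0.08), so its clones moved in opposite directions. Olfr558, with 374 to 441 reads per library and thus more precise than most, had -0.29 ± 0.12. Olfr78, with 551 to 711 reads, had -0.01 ± 0.11. None of the 22 genes of odour signalling and receptor choice was called over time.

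The clones gave calls where the times gave none. By the same edgeR test, with Benjamini-Hochberg adjustment over 50037 intervals, 36 of 787 receptor intervals (4.57%) differed between the clones, against 27.5% of all intervals. Of these, 13 were higher in clone A (1.65%, all intervals 17.3%) and 23 lower (2.92%, all intervals 10.3%). The receptors' counts are lower than those of most intervals. With the mean count held to the middle range of the receptors (21.75 to 45), 4.75% of receptors and 6.36% of other intervals were called. The 23 intervals lower in clone A belong to 21 genes. DESeq2 called 1 receptor, Olfr18 (log2 0.32 ± 0.11 SE, adjusted p = 0.0211), or 0.126% of receptors against 17.3% of all intervals. With 1 library left out, the count was 11 (0 h clone B), 14 (0 h clone A), 19 (2 h clone A) or 23 (2 h clone B). These are 1.39% to 2.92% of receptors, against 18.9% to 23.6% of all intervals.

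**Figure D5:**
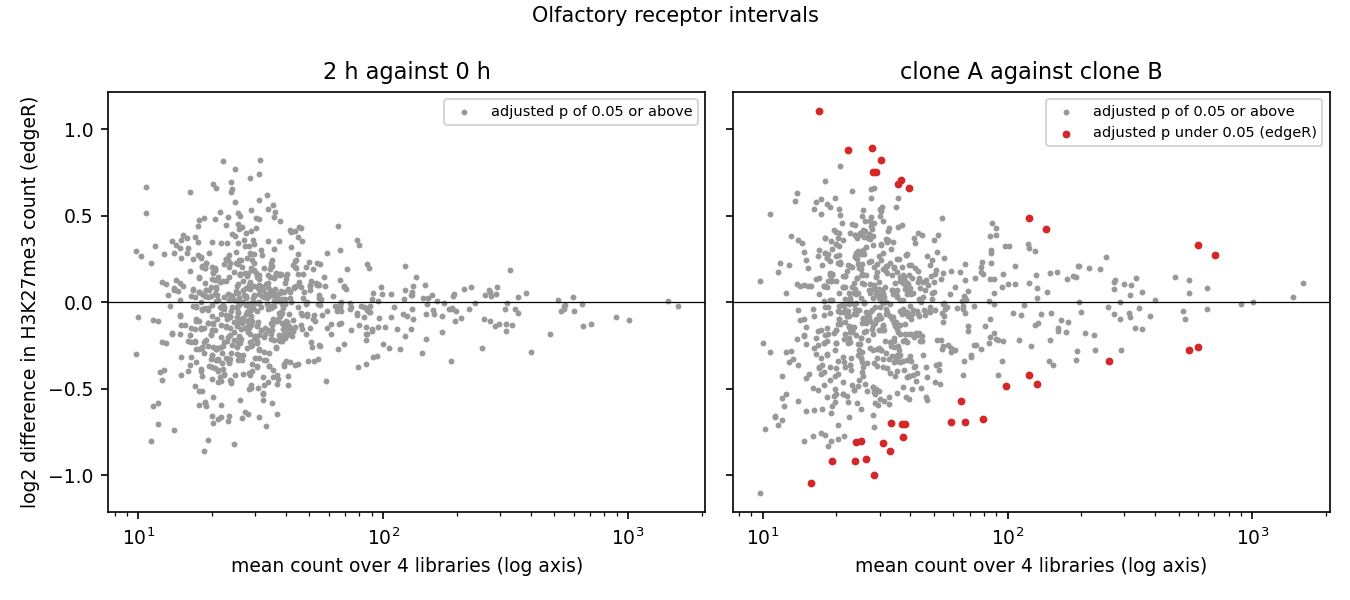
Log2 difference in H3K27me3 count (edgeR) of each tested olfactory receptor interval against its mean count over 4 libraries (log axis), for 2 h against 0 h on the left and clone A against clone B on the right. Red points have an adjusted p under 0.05. None of the 787 intervals is red over time, 36 are red between clones, and the spread narrows as counts rise.

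Higher in clone A were Olfr18, Olfr872 and Olfr1110. Olfr18 (chromosome 9) measured 0.367 and 0.360 in the libraries of clone A, untreated and treated, and 0.282 and 0.303 in those of clone B, so the clones did not overlap. Its log2 difference was 0.33 ± 0.09 (SE), with an edgeR adjusted p of 0.000876. Olfr872 in the same cluster had 0.27 ± 0.08 (SE, edgeR adjusted p = 0.00406), and its interval overlaps another gene. Olfr1110 on chromosome 2 had 0.49 ± 0.16 (edgeR adjusted p = 0.0129). The cluster of Olfr18 and Olfr872, Olfr24 to Olfr18, was the only one of the 18 larger clusters with both clone A sums above both clone B sums. Among all single intervals 29.2% had that order. The sums include the reads of Olfr18 and Olfr872, so they are not separate evidence. Of the 39 receptor intervals of this cluster, 3 were among the 13 called higher in clone A (17.3% of all intervals were called so).

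Lower in clone A were Olfr150, Olfr214 and Olfr52. Olfr150 (chromosome 9) measured 0.817 and 0.760 in the libraries of clone A and 1.32 and 1.23 in those of clone B. Its log2 difference was -0.68 ± 0.19 (SE), with an edgeR adjusted p of 0.00311. Olfr214 (chromosome 6) had -0.69 ± 0.21 (edgeR adjusted p = 0.00510), and Olfr52 (chromosome 2) had -0.998 ± 0.304 (edgeR adjusted p = 0.00587). Olfr1340, beside the marked Olfr1339, was lower in clone A in both of its intervals (-0.48 and -0.47). Olfr1339 itself (-0.28, edgeR adjusted p = 0.0542) and Olfr926 (-0.34, edgeR adjusted p = 0.0502) were just outside the threshold of 0.05.

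Both clone B sums exceeded both clone A sums in 6 of the 18 larger clusters, a share close to the 31.7% of all single intervals in that order. Among them were the 2 densest clusters, Olfr62 to Olfr1328 and Olfr1416 to Olfr12. In 11 clusters the clones overlapped. Among single receptors, both clone B libraries were above both clone A libraries in 27.7%, and the reverse held in 15.9%, against 31.7% and 29.2% of all intervals. The median receptor differed by -0.04 on the log2 scale (all intervals 0.00). Of the measured genes of odour signalling and receptor choice, 7 of 22 were called higher in clone A (17.3% of all intervals), Lhx2 and Gfy among them, and 1, Cnga4, lower (10.3% of all intervals).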

How the data were processed

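Counts of H3K27me3 ChIP-seq reads per interval were used for 4 libraries, 2 clones at 2 times; an interval spans an annotated transcript with its introns. The authors deposited these counts as whole numbers, per the file headers. Bowtie2, bedtools and mm10 were used, per the submitters' processing notes; their versions, read filters and the handling of reads with several matches were details not given in the sources used here. A further 12 unnamed columns of per-library values and 4 of group values were not used, and input libraries were not analysed here.

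Intervals were matched to RefSeq genes of GRCm38.p6 by overlap over union of at least 0.5. Where a gene had several intervals, the best match stood for it in values per gene. Densities were computed by dividing each count by interval length and column total. Clusters end at gaps of 1000000 bp. No annotation of receptor class was at hand, so class I was taken as the chromosome 7 cluster that holds Olfr78. Flanking genes are the nearest other measured genes of any type. Windows and sequences are from RefSeq (250 bases before to 50 after a start).

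Tests were edgeR 4.0.16 quasi-likelihood fits in R 4.3.3 with TMM factors and filterByExpr, over all intervals, for time or for clone alone, Benjamini-Hochberg adjusted and read at 0.05. The fit for time was also run on simulated counts with known changes. Those counts held no clone difference, and the changes were placed among all intervals, so the run does not describe intervals with receptor counts. The alternatives comprised DESeq2 1.42.0, other scaling and filters, 1 interval per gene, other overlaps and limits, blocks, and each library left out. A further alternative, without the intervals that overlap another RefSeq gene, was chosen after seeing the data. Python 3.11.15, SciPy 1.17.1 and matplotlib 3.10.9 served for the rest.

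The text names every marked receptor, the next 3 intervals below the limit, and the densest and sparsest receptor of each chromosome at a mean count of at least 10. It also names the 3 receptors per direction of smallest p for each comparison (for time, those of the same direction in both clones), receptors with roles outside the nose, and flanking genes of the clusters described. For 1 gene of the signalling list no single value is reported here. Members, lists and tests were chosen with earlier results of these data known. Each clone gave a library at both times, which pairs them by clone letter, per the labels' titles. Deviations from the time means correlated within clones at 0.530 over 50037 intervals and 0.147 over 787 receptor intervals. Nothing in the labels says that libraries came from separate cultures, so p-values reflect only how these libraries vary, and that variation may be technical. Reads carry no molecular identifiers, so intervals cover counting error only.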

Additional observations from a re-analysis of the deposited data

Results flagged for a closer look

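On 3 chromosomes the receptors of the clones moved in opposite directions over 2 h of 4OHT. On chromosome 4 the median log2 change of 28 intervals was 0.10 for clone A and -0.08 for clone B, a difference of 0.178. On chromosome 6 it was 0.04 and -0.10 over 28 intervals, a difference of 0.138. On chromosome 7 it was 0.02 and -0.07 over 242 intervals, a difference of 0.0887. Each clone has 1 library per time, so these differences were not tested. The intervals of a chromosome share their libraries, and a single library can move all of them.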

How the results depend on the processing

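No receptor interval was called over time in any of 11 alternatives, the replicate block included: with clone as the replicate block 0 were called and 30 had an unadjusted p under 0.05 (3.81% of receptors, 4.15% of all intervals). Between clones 36 were called by edgeR, 1 by DESeq2 (17.3% of all intervals) and 18 among those with a mean count of at least 50 (10.1%, all intervals 30.2%); with a library left out, 11 to 23 were called (14 without 0 h clone A, 11 without 0 h clone B, 19 without 2 h clone A, 23 without 2 h clone B), which leaves 1 library in an arm, assumed to vary like the other. All 11 calls without 0 h clone B and 8 of the 14 without 0 h clone A were among the 36. The 3 marked intervals became 48 at 2 times and 1 at 8 times the median gene, and stayed 3 in the other alternatives.

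The median density of 0.336 was 0.429 among the 178 intervals whose mean count reached 50, 0.333 without those overlapping another gene, and 0.335 to 0.338 with a library left out. By chromosome, that count minimum gave 0.917 (1), 0.894 (4), 0.713 (6), 0.488 (7) and 0.387 (9). Chromosome 4 had 0.697 without overlapping intervals and 0.577 to 0.619 with a library left out. Gaps of 500000 and 2000000 bp gave 32 and 25 clusters. A typical receptor holds about 30 reads per library.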
